A study of Mus musculus with 6 samples.

Results

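The ephrin, semaphorin and plexin guidance genes were taken as all genes of the deposited count table whose symbol names an Eph receptor, an ephrin, a semaphorin, a plexin or a neuropilin. The choice went by symbol and was made with earlier results of these data known. It found 53 of the 30445 genes in the table, and all 53 are accounted for below. They are 14 Eph receptors (9 EphA and 5 EphB), 8 ephrins (5 ephrin-A and 3 ephrin-B), 20 semaphorins, 9 plexins and 2 neuropilins. Their RNA had been sequenced in induced macrophages (iMac), in cells called a myeloid-like cell complex (MCC) and in mouse embryonic fibroblasts (MEF), with 2 libraries in each group and 6 in all. The labels give the genotype of every group as wild type, and the series title presents c-Myc as sufficient to reprogram fibroblasts. The making of MCC and iMac, the agents used, and the purity of each culture were not given in the sources used here. Each comparison asks how guidance gene RNA differed: in iMac against MEF, in MCC against MEF and in iMac against MCC.

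Eph receptors are receptor tyrosine kinases that bind ephrins on neighbouring cells: ephrin-A ligands are held to the membrane by a lipid anchor, ephrin-B ligands span it, and both sides of the contact can signal, usually to push cells apart or to set a tissue boundary. Semaphorins are secreted or membrane-bound ligands whose receptors are the plexins, which act on small GTPases and the cytoskeleton, and the secreted class 3 semaphorins mostly need a neuropilin as co-receptor. The families are best known from axon guidance, but mesenchymal cells use many of them to sort, migrate and form vessels, and leukocytes use a smaller set in migration and in contacts between immune cells.

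Levels are CPM, the counts of a gene per 1e6 counts of its library after scaling, and library totals ran from 34389817 to 39174367 counts. A gene is said to have risen or fallen, or to be called, where edgeR's quasi-likelihood test gave an adjusted p under 0.05 after Benjamini-Hochberg adjustment over all 18613 genes tested. Of the members, 50 were tested and 3, Epha6, Epha8 and Epha10, had too few counts. The labels do not state separate cultures for the 2 libraries of a group, so the p-values measure only the spread between these libraries, which may be technical. In RNA from whole cultures, fewer cells that express a gene and less of its RNA in each cell cannot be told apart. Counting intervals and limits cover counting error only.

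The libraries were checked against markers of the named cell types. The 10 macrophage markers, among them Csf1r, Adgre1 and Cd68, summed to 23974 and 20099 CPM in iMac, 13776 and 13290 CPM in MCC, and 5.85 and 8.91 CPM in MEF. Between iMac and MCC not every macrophage marker followed the order of the sums. Lyz2 averaged 13397 CPM in iMac and 6149 CPM in MCC, but Mrc1 averaged 1362 and 2105 CPM and C1qa 768 and 894 CPM. The 10 fibroblast markers, among them Col1a1, Pdgfra and Thy1, summed to 15.2 and 11.9 CPM in iMac, 973 and 81.5 CPM in MCC, and 22117 and 9563 CPM in MEF. Each label was thus matched by its markers, and MCC library 1 held far more fibroblast marker RNA than MCC library 2, so for most members the fold change in MCC is also given without it. The MEF libraries differed as well, with library 1 above library 2 in the fibroblast marker sum, and every comparison with MEF rests on both. The 10 smooth muscle and pericyte markers followed the same order, at 5.20 and 8.93 CPM in iMac, 382 and 72.8 CPM in MCC, and 7026 and 1312 CPM in MEF. The 10 neuron and Schwann cell markers summed to 2.18 and 2.59 CPM in iMac, 11.7 and 3.05 CPM in MCC, and 156 and 121 CPM in MEF. Of the endothelial markers, 9 of the 10 listed were in the table and their sum lay between 34.3 and 62.3 CPM in all 6 libraries. Single endothelial markers moved in opposite directions under this sum. Emcn averaged 0 CPM in iMac and 27.3 CPM in MEF, while Egfl7 averaged 39.8 CPM in iMac and 3.10 CPM in MEF. The sum of 9 listed epithelial markers reached at most 11.4 CPM in any library. The part of these other cell types in the results below was not tested.

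Most guidance genes were lower in iMac than in MEF, and a small set was higher there. Members at a mean of at least 1 CPM numbered 49 in MEF, 33 in MCC and 24 in iMac. In iMac against MEF, 9 of the 50 members tested rose and 36 fell. Over all genes tested, 57.6% were called in this comparison, 25.1% higher and 32.4% lower, so that the share of members that rose (18%) was below the background and the share that fell (72%) above it. The median log2 fold change of the 50 members was -4.38, against -0.06 over all genes tested. In MCC against MEF, 7 members rose and 33 fell, which is 14% and 66% of those tested, against 53% of all genes called, 23.4% higher and 29.6% lower. Here the median log2 fold change was -3.67 over the members and -0.05 over all genes tested. Both comparisons use the same MEF libraries, so their likeness is not independent.

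In iMac against MCC no member was called, by edgeR's quasi-likelihood test, and over all genes tested 0.0215% were called, 0.0107% higher and 0.0107% lower. DESeq2 called 6 members higher and 10 lower in this comparison, and limma-voom called 1 higher. At an unadjusted p under 0.05, 6 members were higher and 10 lower, against 7.69% of all genes higher and 10.5% lower. The count depended on MCC library 2, since without it the test called 2 members higher and 14 lower. The count of members lower in iMac than in MEF depended on both iMac libraries: 18 were called without iMac library 1 and 20 without iMac library 2.

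**Figure D1:**
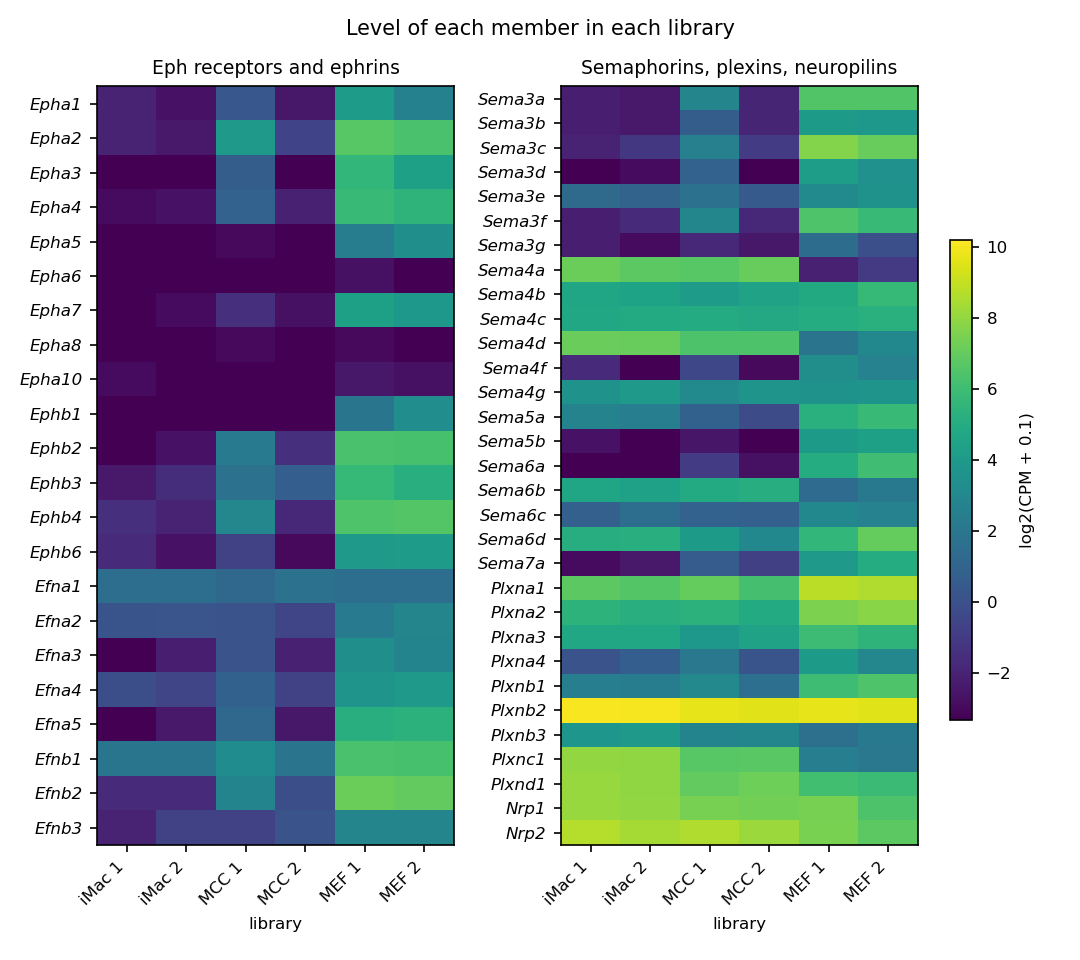
Level of each of the 53 members in each library, as log2(CPM + 0.1) in colour, with Eph receptors and ephrins in the left panel and semaphorins, plexins and neuropilins in the right one. Most rows are brighter in the MEF libraries than in the iMac libraries, while Sema4a, Sema4d, Plxnc1 and a few others show the opposite order.

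**Figure D2:**
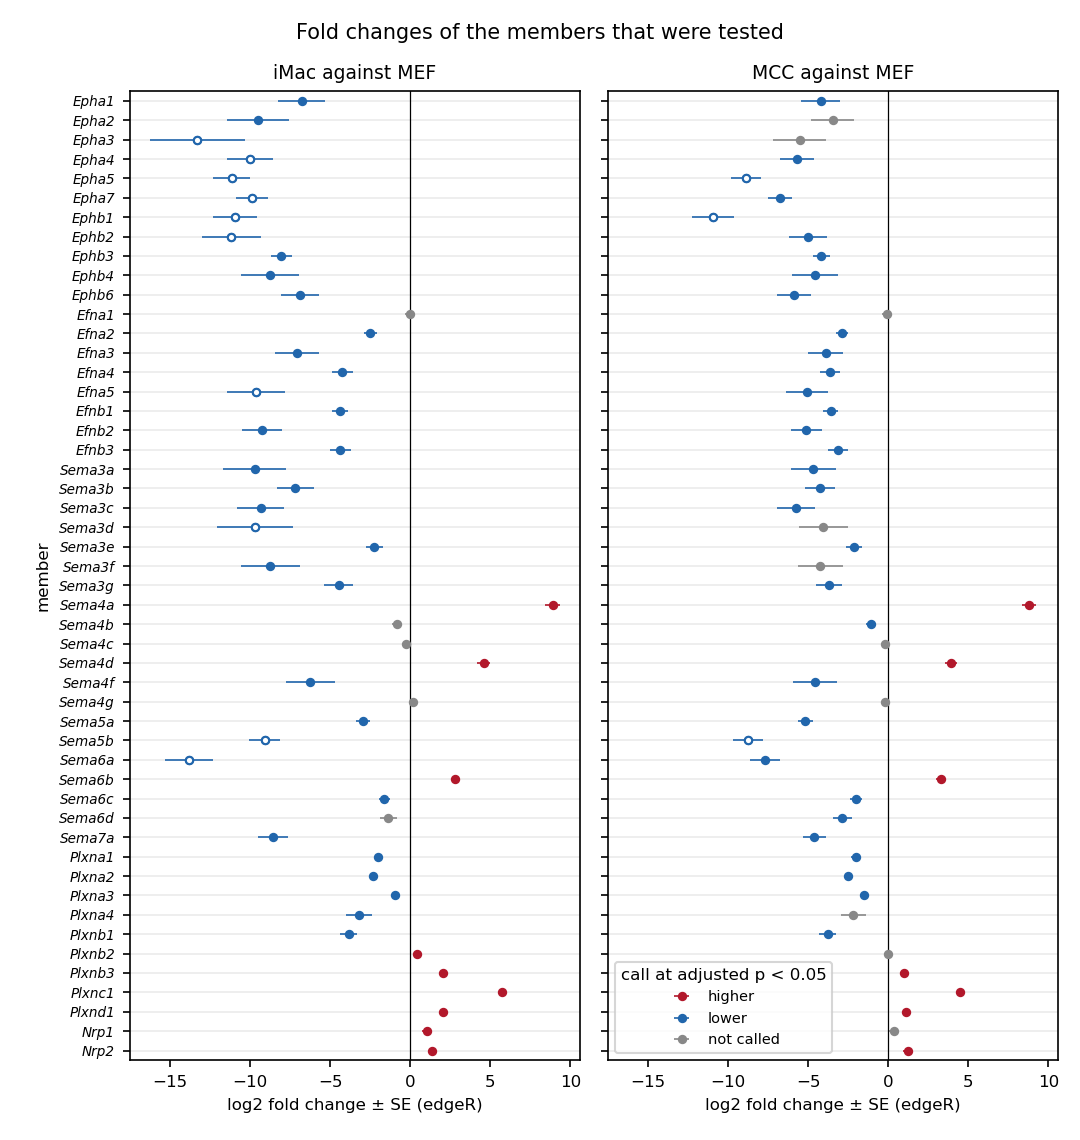
Log2 fold change with its SE for the 50 members tested, iMac against MEF on the left and MCC against MEF on the right, coloured by call at an adjusted p under 0.05. Open circles mark members with at most 3 counts in iMac or MCC, whose fitted value depends on the prior count and is no measured size. The Eph receptors, ephrins and class 3 semaphorins lie at or left of 0 in both panels, and the members that rose are semaphorins, plexins and neuropilins.

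Eph receptors had the lowest median fold change of the families. All 11 tested fell in iMac against MEF, with a median log2 fold change of -9.89, and 9 of the 11 fell in MCC against MEF, with a median of -5.54. All 11 had too few counts in iMac to pass the count filter there, so each was tested through its counts in other groups. A receptor as low in MEF and MCC as in iMac would not have been tested. The fall of all 11 was thus partly set by the filter. Several of the 11, among them Epha7 with 1 count, had at most 3 counts in iMac. The size of the iMac median therefore depends on the prior count, and its rank among the families may too. The highest mean level of any Eph receptor was 0.210 CPM in iMac, 8.10 CPM in MCC and 91.8 CPM in MEF. Ephb4, the receptor of ephrin-B2 in the forming vasculature, was at 0.269 and 0.151 CPM in iMac, 7.49 and 0.187 CPM in MCC, and 88.3 and 95.3 CPM in MEF. Epha2, an ephrin-A receptor of epithelial and mesenchymal cells, was at 0.149 and 0.0905 CPM in iMac, 15.6 and 0.562 CPM in MCC, and 101 and 79.7 CPM in MEF. Both receptors were near 0 in the iMac libraries and in MCC library 2, stood higher in MCC library 1 and were highest in MEF, with no overlap between MEF and either of the other groups. The log2 fold change in iMac against MEF was -8.75 ± 1.82 (SE) for Ephb4 and -9.52 ± 1.93 for Epha2, with adjusted p of 0.0123 and 0.0114 by edgeR's quasi-likelihood test. In MCC against MEF it was -4.58 ± 1.41 (adjusted p = 0.0432) for Ephb4, and for Epha2 it was -3.48 ± 1.34 and missed the threshold (adjusted p = 0.0783), although DESeq2, limma-voom and the fits without either MCC library called it.

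Ephb2, a receptor of ephrin-B ligands, was at 0 and 0.0603 CPM in iMac, 4.5 and 0.268 CPM in MCC, and 78.5 and 76.2 CPM in MEF. Ephb3, its close relative, was at 0.0896 and 0.241 CPM in iMac, 3.35 and 1.55 CPM in MCC, and 53.2 and 36.2 CPM in MEF. Ephb6, whose kinase domain is inactive, was at 0.209 and 0.0603 CPM in iMac, 0.52 and 0.0268 CPM in MCC, and 15.9 and 17.3 CPM in MEF. All 3 were highest in both MEF libraries, and Ephb6 was as low in MCC library 2 as in iMac. Ephb3 had the smallest adjusted p of the Eph receptors in iMac against MEF, 0.00103 at a log2 fold change of -8.05 ± 0.67, and in MCC against MEF it stood at -4.19 ± 0.53 (adjusted p = 0.00368, edgeR's quasi-likelihood test). Ephb2 rested on 2 counts in iMac and was 2577-fold lower (95% counting interval 713 to 21286) than in MEF.

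Epha4, which can bind ephrins of both classes, was at 0.0299 and 0.0603 CPM in iMac, 1.79 and 0.134 CPM in MCC, and 55.7 and 44.2 CPM in MEF. Epha3, an ephrin-A receptor of embryonic mesenchyme, was at 0 and 0 CPM in iMac, 1.48 and 0 CPM in MCC, and 49.4 and 20.2 CPM in MEF. Epha7 was at 0 and 0.0302 CPM in iMac, 0.26 and 0.0535 CPM in MCC, and 20.4 and 14.6 CPM in MEF, and Epha1, the founding member of the family, at 0.149 and 0.0603 CPM in iMac, 1.2 and 0.0803 CPM in MCC, and 18 and 6.03 CPM in MEF. Each stood above all other libraries in both MEF libraries, and Epha3 had no count in iMac, which allows up to 0.0450 CPM. Relative to MEF, iMac were at least 765-fold lower in Epha3, 1107-fold lower (95% counting interval 378 to 5370.0) in Epha4 and 1162-fold lower (95% counting interval 208 to 45934) in Epha7. Set against MEF in MCC, Epha4, Epha7 and Epha1 fell, with log2 fold changes of -5.69 ± 1.06, -6.76 ± 0.76 and -4.22 ± 1.21, while Epha3 at -5.54 ± 1.67 was not called (adjusted p = 0.0527, edgeR's quasi-likelihood test). Epha3 was called by limma-voom, with no filter and without either MCC library, and of the 4 receptors Epha7 had the smallest adjusted p in MCC, 0.00272.

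The remaining Eph receptors were low everywhere. Epha5 and Ephb1 averaged under 10 CPM in every group, with 5.12 and 10.5 CPM for Epha5 and 3.66 and 9.92 CPM for Ephb1 in MEF, and neither had a count in iMac. Epha5 was at least 175-fold lower in iMac than in MEF and 599-fold lower (95% counting interval 107 to 23697) in MCC than in MEF, and for Ephb1 iMac were at least 153-fold lower and MCC at least 174-fold lower. The untested Epha6, Epha8 and Epha10 had at most 5 counts over the libraries of any group. Calls of Epha1, Epha2, Epha3, Ephb2 and Ephb4 in iMac against MEF were lost when either iMac library was left out, that of Ephb6 without iMac library 2, and that of Epha3 also without either MEF library. Those of Epha4, Epha5, Epha7, Ephb1 and Ephb3 passed in each of the 6 fits that left out a library, although DESeq2 did not call Ephb1 in iMac. In MCC against MEF the calls of Epha1, Ephb2 and Ephb4 were lost without either MEF library or either iMac library. In the fit of MCC and MEF alone those same 3 calls were lost. Without MCC library 1, the log2 fold changes of Epha2 and Epha3 in MCC were -7.31 and -13.29. Without MCC library 2 they were -2.41 and -4.43. Those of Ephb4, Ephb2, Epha4 and Epha1 without MCC library 1 were -8.90, -8.15, -8.50 and -7.15. Those of Ephb6, Epha7 and Ephb3 were -9.09, -8.25 and -4.83. MCC library 2 held 0 counts of Epha3, 1 of Ephb6, 2 of Epha7 and 3 of Epha1. Their values without MCC library 1 thus depend on the prior count and are no measured size.

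Ephrins fell with 1 exception. Of the 8, 7 fell in iMac against MEF and 7 in MCC against MEF, with median log2 fold changes of -4.38 and -3.62. Efnb2, the ligand of Ephb4 and a mark of arterial endothelium and mesenchyme, was at 0.209 and 0.211 CPM in iMac, 6.79 and 0.856 CPM in MCC, and 142 and 125 CPM in MEF. It was the highest ephrin in MEF and fell below 1 CPM in iMac and in MCC library 2, with no overlap between groups. Its log2 fold change was -9.29 ± 1.24 in iMac against MEF (adjusted p = 0.00353) and -5.12 ± 0.96 in MCC against MEF (adjusted p = 0.0109, edgeR's quasi-likelihood test), and -7.26 in MCC without MCC library 1. Efnb1, an X-linked ephrin of neural crest and skeletal mesenchyme, was at 3.73 and 3.77 CPM in iMac, 9.39 and 3.53 CPM in MCC, and 78.4 and 78 CPM in MEF. Unlike Efnb2 it kept a low level in iMac, and its log2 fold change in iMac against MEF was -4.38 ± 0.50 (adjusted p = 0.00235, edgeR's quasi-likelihood test).

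Efna5, a ligand of EphA receptors in axon mapping, was at 0 and 0.0905 CPM in iMac, 2.21 and 0.0803 CPM in MCC, and 35.4 and 41.8 CPM in MEF. Efna4 was at 0.866 and 0.603 CPM in iMac, 1.74 and 0.508 CPM in MCC, and 12.7 and 15.6 CPM in MEF. Efna5 was nearly absent outside MEF and MCC library 1, with 3 counts in iMac, and was 859.5-fold lower (95% counting interval 294 to 4170.4) in iMac than in MEF. Efna4 kept a level near 1 CPM in iMac and MCC and had a log2 fold change of -4.26 ± 0.66 in iMac against MEF (adjusted p = 0.00526, edgeR's quasi-likelihood test).

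Efna1, Efna2, Efna3 and Efnb3 stayed under 10 CPM in every group, at most 8.77 CPM. Efna2, Efna3 and Efnb3 fell in both comparisons with MEF, and Efna3 fell by more than 5 on the log2 scale in iMac, at -7.11 ± 1.38 (adjusted p = 0.0101, edgeR's quasi-likelihood test). Efna1, a ligand of Epha2, was at 2.87 and 2.8 CPM in iMac, 2.18 and 3.18 CPM in MCC, and 2.87 and 2.86 CPM in MEF. Its groups overlapped, with a log2 fold change of -0.02 ± 0.29 in iMac against MEF and -0.09 ± 0.29 in MCC against MEF. Of these calls, that of Efna3 in iMac was lost without iMac library 1 and that of Efna5 in iMac without either iMac library, and in MCC both were lost without either MEF library, that of Efna5 also without either iMac library and both in the fit of MCC and MEF alone. Without MCC library 1, the log2 fold changes in MCC against MEF were -5.99 for Efna3, -8.84 for Efna5, -4.45 for Efnb1 and -4.78 for Efna4. That of Efna5 rests on 3 counts in MCC library 2 and is no measured size. The exons of Efna3 and Efna4 share 14.1% and 10.5% of their bases with genes on the opposite strand, so reads of these genes cannot be told apart if counting ignored strand.

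The secreted class 3 semaphorins were high in MEF and low elsewhere. All 7 fell in iMac against MEF, with a median log2 fold change of -8.74, and 5 of the 7 fell in MCC against MEF, with a median of -4.24. Sema3c, which acts through both neuropilins and guides cardiac neural crest, was at 0.149 and 0.362 CPM in iMac, 5.72 and 0.428 CPM in MCC, and 206 and 132 CPM in MEF. Sema3a, the classic growth cone collapsing factor, which binds Nrp1, was at 0.119 and 0.0905 CPM in iMac, 7.0 and 0.161 CPM in MCC, and 91 and 93.7 CPM in MEF. Sema3f, which binds Nrp2, was at 0.119 and 0.211 CPM in iMac, 7.41 and 0.187 CPM in MCC, and 87.4 and 56.7 CPM in MEF. These 3 were among the higher members in MEF and were under 0.5 CPM in iMac and in MCC library 2, while MCC library 1 lay between. Their log2 fold changes in iMac against MEF were -9.36 ± 1.48 for Sema3c, -9.73 ± 1.94 for Sema3a and -8.74 ± 1.87 for Sema3f, with adjusted p of 0.00566, 0.0109 and 0.0134 by edgeR's quasi-likelihood test. In MCC relative to MEF, Sema3c and Sema3a fell, with log2 fold changes of -5.78 ± 1.19 and -4.69 ± 1.41, and Sema3f at -4.24 missed the threshold (adjusted p = 0.0537). Sema3f was called there by DESeq2, by limma-voom, with no filter and without either MCC library, at an adjusted p of 0.000676 without library 1 and 0.0045 without library 2 (edgeR's quasi-likelihood test).

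Sema3b was at 0.119 and 0.0905 CPM in iMac, 1.48 and 0.161 CPM in MCC, and 16.6 and 14.9 CPM in MEF. Sema3d was at 0 and 0.0302 CPM in iMac, 1.82 and 0 CPM in MCC, and 19.4 and 11.2 CPM in MEF. Both followed the pattern of Sema3a, and Sema3d, which had 1 count in iMac, was 1011-fold lower (95% counting interval 181 to 39953) in iMac than in MEF. Sema3e, which binds Plxnd1 without a neuropilin, was at 2.42 and 1.9 CPM in iMac, 3.35 and 1.31 CPM in MCC, and 8.38 and 12.4 CPM in MEF. It was the only class 3 semaphorin above 1 CPM in iMac, and its log2 fold change of -2.26 ± 0.52 was the smallest of the class (adjusted p = 0.0169, edgeR's quasi-likelihood test). Sema3g, a ligand of Nrp2, was under 10 CPM in all libraries, at 0.119 and 0.0302 CPM in iMac, 0.182 and 0.0803 CPM in MCC, and 2.6 and 0.902 CPM in MEF, and also fell in both comparisons with MEF.

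These calls leaned on single libraries. In iMac against MEF each of the 7 lost its call without iMac library 1, and all but Sema3c also without iMac library 2; Sema3d lost it without either MEF library and Sema3e without MEF library 2. In MCC against MEF, Sema3a and Sema3b lost their calls without either MEF library, Sema3a also without either iMac library, Sema3e without MEF library 2 or either iMac library, and Sema3g without MEF library 1 or MCC library 2. Sema3a and Sema3e also lost theirs in the fit of MCC and MEF alone, while Sema3d, not called at -4.06 (adjusted p = 0.0767, edgeR's quasi-likelihood test), was called by limma-voom and without either MCC library. Without MCC library 1 the log2 fold changes of all 7 in MCC were negative, from -12.10 for Sema3d to -2.97 for Sema3e. Sema3a stood at -9.13, Sema3f at -8.55, Sema3c at -8.61 and Sema3b at -6.57. MCC library 2 held 0 counts of Sema3d, so its value depends on the prior count and is no measured size. The part of fibroblast RNA in MCC library 1 was not tested.

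Membrane-bound semaphorins split, and the member with the largest rise is among them. In iMac against MEF, 2 of the 6 class 4 members rose and 1 fell, 1 of the 4 class 6 members rose and 2 fell, and both class 5 members and Sema7a fell. In MCC against MEF, 2 class 4 members rose and 2 fell, 1 class 6 member rose and 3 fell, and both class 5 members and Sema7a fell. Sema4a, a semaphorin of dendritic cells and macrophages that acts on T cells and binds plexins B and D1, was at 141 and 111 CPM in iMac, 104 and 132 CPM in MCC, and 0.136 and 0.386 CPM in MEF. It was near 0 in both MEF libraries and over 100 CPM in all 4 iMac and MCC libraries. Its log2 fold change was 8.89 ± 0.46 in iMac against MEF (adjusted p = 0.000292) and 8.79 ± 0.46 in MCC against MEF (adjusted p = 0.000368), by edgeR's quasi-likelihood test.

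Sema4d, the leukocyte semaphorin CD100, a ligand of Plxnb1 and of Cd72, was at 137 and 135 CPM in iMac, 86.9 and 86.2 CPM in MCC, and 3.55 and 7.75 CPM in MEF. Its 3 groups did not overlap, with iMac highest. The log2 fold change was 4.58 ± 0.40 in iMac against MEF (adjusted p = 0.00116) and 3.93 ± 0.39 in MCC against MEF (adjusted p = 0.002), and 0.65 ± 0.34 in iMac against MCC, where it was not called (adjusted p = 0.374, edgeR's quasi-likelihood test). Sema6b, a ligand of Plxna4, was at 25.6 and 21.6 CPM in iMac, 30.9 and 34.7 CPM in MCC, and 2.55 and 4.25 CPM in MEF. MCC were highest and MEF lowest, with log2 fold changes of 2.79 ± 0.29 in iMac against MEF (adjusted p = 0.00177) and 3.27 ± 0.29 in MCC against MEF (adjusted p = 0.00157, edgeR's quasi-likelihood test). Sema4a, Sema4d and Sema6b passed in both comparisons in each fit that left out a library, and without MCC library 1 their log2 fold changes in MCC were 8.96, 3.94 and 3.36.

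Sema6d, a ligand of Plxna1, was at 33.9 and 35.1 CPM in iMac, 16.5 and 7.89 CPM in MCC, and 50.3 and 128 CPM in MEF. It fell in MCC against MEF, by 2.87 ± 0.57 on the log2 scale (adjusted p = 0.0128, edgeR's quasi-likelihood test), and in iMac it stood at -1.37 against MEF without passing (adjusted p = 0.0815). The 2 MEF libraries lay far apart for this gene, and by DESeq2 or without MEF library 1 it was called lower in iMac too. Sema5a, a ligand of Plxnb3 with thrombospondin repeats, was at 6.48 and 5.34 CPM in iMac, 1.77 and 0.776 CPM in MCC, and 37.7 and 55.2 CPM in MEF. Its iMac libraries lay above both MCC libraries and far below MEF, with log2 fold changes of -2.98 ± 0.43 in iMac against MEF (adjusted p = 0.00447) and -5.19 ± 0.48 in MCC against MEF (adjusted p = 0.00174, edgeR's quasi-likelihood test). Without MCC library 1 the log2 fold change in MCC was -3.48 for Sema6d and -5.89 for Sema5a. In iMac against MCC Sema5a had the largest positive fold change of the members at an unadjusted p under 0.05, 2.21 ± 0.44 (unadjusted p = 0.00361, adjusted p = 0.139, edgeR).

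Sema6a, a ligand of Plxna2 and Plxna4, was at 0 and 0 CPM in iMac, 0.416 and 0.0535 CPM in MCC, and 33.3 and 65.5 CPM in MEF. Sema5b was at 0.0597 and 0 CPM in iMac, 0.078 and 0 CPM in MCC, and 16.7 and 20.2 CPM in MEF. Sema7a, which is held by a lipid anchor and binds Plxnc1 and beta-1 integrins, was at 0.0299 and 0.0905 CPM in iMac, 1.46 and 0.482 CPM in MCC, and 15.7 and 32.5 CPM in MEF. All 3 were well above 10 CPM in MEF and below 2 CPM elsewhere. Sema6a had no count in iMac, a level at least 1107-fold lower than that of MEF, Sema5b was 617-fold lower (95% counting interval 171 to 5101) in iMac and 468-fold lower (95% counting interval 159.8 to 2273) in MCC, and Sema7a had log2 fold changes of -8.57 ± 0.94 in iMac (adjusted p = 0.00211) and -4.63 ± 0.71 in MCC (adjusted p = 0.00631, edgeR's quasi-likelihood test). These calls passed in each fit that left out a library. Without MCC library 1 the log2 fold change in MCC was -9.75 for Sema6a, -12.38 for Sema5b and -5.62 for Sema7a. MCC library 2 held 2 counts of Sema6a and 0 of Sema5b. The values of Sema6a and Sema5b without MCC library 1 thus depend on the prior count and are no measured size.

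The other class 4 semaphorins were mostly not called. Sema4b was at 24.5 and 23.1 CPM in iMac, 17.7 and 21.8 CPM in MCC, and 30 and 53.8 CPM in MEF. Sema4c, a ligand of Plxnb2, was at 27.9 and 30.5 CPM in iMac, 31.5 and 28.6 CPM in MCC, and 32.5 and 38.2 CPM in MEF. Sema4g was at 11.8 and 15.7 CPM in iMac, 8.56 and 12.5 CPM in MCC, and 11.8 and 12.8 CPM in MEF. Sema4b was called lower in MCC against MEF, at -1.09 ± 0.30 (adjusted p = 0.0319, edgeR's quasi-likelihood test), a call lost without either MCC library, without either iMac library, in the fit of MCC and MEF alone and with library totals left unscaled. In iMac its -0.82 ± 0.30 missed the threshold (adjusted p = 0.0656), and with median-ratio size factors, by DESeq2 or without MEF library 1 it was called. Sema4c had -0.28 ± 0.14 in iMac and -0.23 ± 0.14 in MCC, and Sema4g 0.16 ± 0.26 and -0.23 ± 0.26; none of these was called, although DESeq2 called Sema4c lower in iMac. Sema4f and Sema6c were under 10 CPM everywhere and were called lower in both comparisons with MEF, Sema4f at -6.24 ± 1.54 in iMac (adjusted p = 0.0207, edgeR's quasi-likelihood test). The calls of Sema4f were lost without any 1 of the 4 libraries of iMac and MEF and, in MCC, in the fit of MCC and MEF alone, and that of Sema6c in iMac without MEF library 1 or iMac library 1.

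Plexins and neuropilins, the semaphorin receptors, moved in both directions. In iMac against MEF 6 of the 11 rose and 5 fell, and in MCC against MEF 4 rose, 4 fell and 3 were not called. Plxnc1, the receptor of Sema7a, was at 259 and 252 CPM in iMac, 102 and 109 CPM in MCC, and 5.42 and 4.15 CPM in MEF. Its groups did not overlap, and it rose by 5.74 ± 0.17 on the log2 scale in iMac against MEF (adjusted p = 8.73e-05) and by 4.46 ± 0.16 in MCC against MEF (adjusted p = 0.000152, edgeR's quasi-likelihood test). Both iMac libraries lay above both MCC libraries, with a log2 fold change of 1.28 ± 0.14, the smallest adjusted p of the members in that comparison, 0.0756, which missed the threshold. DESeq2, limma-voom, the fit with no filter, the fit of the compared groups alone and the fit without MCC library 2 called it.

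Plxnd1, the receptor of Sema3e and a receptor of Sema4a, was at 281 and 252 CPM in iMac, 122 and 148 CPM in MCC, and 68.4 and 59.4 CPM in MEF. The order was iMac, MCC, MEF with no overlap, and log2 fold changes were 2.06 ± 0.15 in iMac against MEF (adjusted p = 0.000699), 1.08 ± 0.14 in MCC against MEF (adjusted p = 0.00416) and 0.98 ± 0.14 in iMac against MCC, which was not called (adjusted p = 0.0958, edgeR's quasi-likelihood test). Plxnb3, a receptor of Sema5a, was at 13.6 and 15.8 CPM in iMac, 6.76 and 7.36 CPM in MCC, and 3.04 and 4.25 CPM in MEF. It showed the same order at a low level, with 2.01 ± 0.24 in iMac against MEF (adjusted p = 0.00277) and 0.95 ± 0.24 in MCC against MEF (adjusted p = 0.0242, edgeR's quasi-likelihood test). The call of Plxnb3 in MCC was lost without MEF library 1, without either iMac library and in the fit of MCC and MEF alone, while those of Plxnc1 and Plxnd1 against MEF, and of Plxnb3 in iMac, passed in each fit that left out a library.

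Plxnb2, a receptor of Sema4c, had the highest level of the members in every library, at 1059 and 1023 CPM in iMac, 817 and 761 CPM in MCC, and 840.2 and 738 CPM in MEF. MCC and MEF overlapped and iMac lay above both. The log2 fold change was 0.40 ± 0.12 in iMac against MEF (adjusted p = 0.0344) and 0.00 ± 0.12 in MCC against MEF (adjusted p = 0.999, edgeR's quasi-likelihood test). The call in iMac is fragile, since it was lost with median-ratio size factors, in the fit of iMac and MEF alone and in 5 of the 6 fits that left out a library, the exception being the one without MEF library 1. Nrp1, a co-receptor of class 3 semaphorins and of VEGF, was at 281 and 253 CPM in iMac, 171 and 160.3 CPM in MCC, and 170.1 and 87 CPM in MEF. Its MEF libraries differed by more than the MCC mean differed from the MEF mean, and its rise of 1.05 ± 0.32 in iMac against MEF (adjusted p = 0.0374, edgeR's quasi-likelihood test) was likewise lost with median-ratio size factors, in the fit of the compared groups alone and without either iMac library. Nrp2, the co-receptor of Sema3f, was at 416 and 329 CPM in iMac, 384 and 288 CPM in MCC, and 178 and 112 CPM in MEF. All 4 iMac and MCC libraries lay above both MEF libraries, with log2 fold changes of 1.36 ± 0.28 in iMac (adjusted p = 0.0124) and 1.21 ± 0.28 in MCC (adjusted p = 0.0196, edgeR's quasi-likelihood test), lost in iMac without MEF library 2 or iMac library 1 and in MCC without MEF library 2 or MCC library 1.

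**Figure D3:**
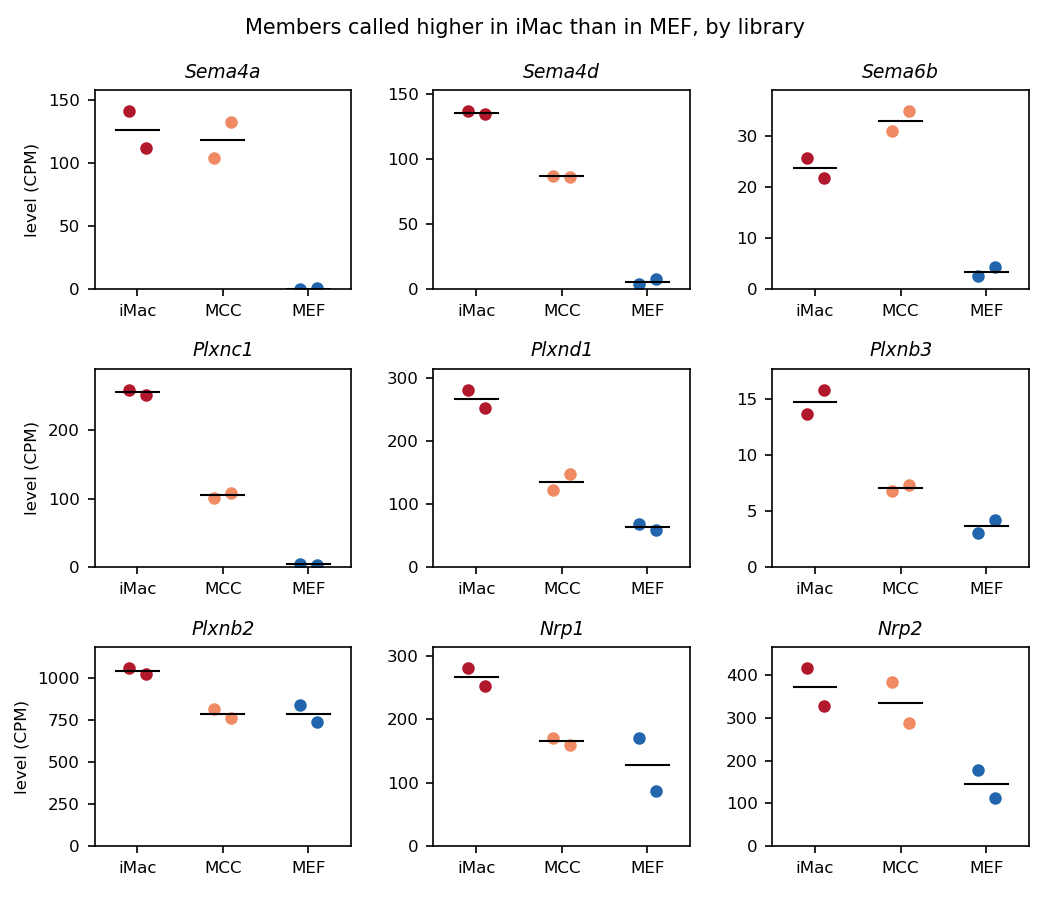
Level in CPM of the 9 members called higher in iMac than in MEF, with a point for each library and a line at the mean of each group; every axis starts at 0. For Plxnc1, Plxnd1, Plxnb3 and Sema4d the groups stand in the order iMac, MCC, MEF without overlap, whereas for Plxnb2 the MCC and MEF libraries overlap.

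The class A plexins, which carry the signal of class 3 and class 6 semaphorins, fell together with Plxnb1. Plxna1, a receptor of Sema6d and, with Nrp1, of Sema3a, was at 110.4 and 96 CPM in iMac, 127 and 74.7 CPM in MCC, and 444 and 386 CPM in MEF. Plxna2, a receptor of Sema6a, was at 42.7 and 37.4 CPM in iMac, 41 and 30.3 CPM in MCC, and 185 and 224 CPM in MEF. Plxna3, which works with Nrp2 in Sema3f signalling, was at 26.7 and 27.3 CPM in iMac, 14.9 and 22.1 CPM in MCC, and 61.2 and 44.6 CPM in MEF. All 3 remained expressed in iMac and MCC but below both MEF libraries, so they fell far less than their class 3 ligands. The log2 fold changes in iMac against MEF were -2.01 ± 0.27 for Plxna1, -2.35 ± 0.20 for Plxna2 and -0.97 ± 0.25 for Plxna3, with adjusted p of 0.00377, 0.00103 and 0.0235 by edgeR's quasi-likelihood test. In MCC they were -2.04 ± 0.27, -2.52 ± 0.20 and -1.52 ± 0.25, and all 3 plexins were called there too, with -2.46, -2.74 and -1.25 without MCC library 1.

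Plxnb1, the receptor of Sema4d outside the immune system, was at 5.4 and 5.16 CPM in iMac, 8.04 and 3.02 CPM in MCC, and 62.8 and 90.3 CPM in MEF. Plxna4, a receptor of Sema3a, Sema6a and Sema6b, was at 0.985 and 1.57 CPM in iMac, 4.21 and 1.04 CPM in MCC, and 16.4 and 7.5 CPM in MEF. Both were highest in MEF. Plxnb1 had log2 fold changes of -3.86 ± 0.52 in iMac (adjusted p = 0.00367) and -3.79 ± 0.52 in MCC (adjusted p = 0.00459), and Plxna4 had -3.22 ± 0.82 in iMac (adjusted p = 0.0221) and -2.18 ± 0.77 in MCC, which missed the threshold (adjusted p = 0.0633, edgeR's quasi-likelihood test). The calls of Plxna3 and Plxna4 in iMac were lost without MEF library 1 or either iMac library, and without MCC library 1 Plxna4 was called in MCC at -3.50, as it was by DESeq2 and limma-voom. That of Plxnb1 in MCC was -4.65 without MCC library 1. Exons of Plxna1 share 10.7% of their bases with a gene on the opposite strand.

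Set on a common scale of CPM per exonic kilobase, which allows genes of different length to be compared, the summed level of the members was 362 and 335 in iMac, 275 and 249 in MCC, and 472 and 433 in MEF. Its make-up differed more than its total. Eph receptors and ephrins together made up 1.10% and 1.17% of the sum in iMac, 5.20% and 1.75% in MCC, and 31.7% and 31.7% in MEF. Plexins made up 62.9% and 64.7% in iMac, 56.5% and 58.8% in MCC, and 41.2% and 40.7% in MEF. The secreted semaphorins held 0.101% and 0.0990% in iMac, 1.33% and 0.121% in MCC, and 12.6% and 9.73% in MEF, and the neuropilins 17.7% and 16.0% in iMac, 18.1% and 16.4% in MCC, and 6.87% and 4.25% in MEF. Semaphorin receptors thus kept a large share in iMac, where secreted semaphorins held almost none. The neuropilin share depends on the length used: per kilobase of the longest transcript it was 27.3% and 25.3% in iMac, 27.1% and 24.9% in MCC, and 11.97% and 7.38% in MEF, and that of the plexins 51.5% and 53.5% in iMac, 46.8% and 48.6% in MCC, and 36.6% and 37.1% in MEF.

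Plxnb2 led the members per kilobase in each group, at 134.9 ± 3.28 CPM per kilobase in iMac, 102.2 ± 5.10 in MCC and 102.2 ± 9.35 in MEF (mean ± SD of 2 libraries). After it, iMac had Plxnd1 at 36.5 ± 2.84, Nrp2 at 31.5 ± 5.25 and Plxnc1 at 30.6 ± 0.619, where Nrp2 lay within its spread of both and Plxnd1 stood above Plxnc1, and MEF had Plxna1 at 45.8 ± 4.49, Sema3c at 23.7 ± 7.35 and Efnb1 at 22.6 ± 0.0785, where the last pair lay within their spread. Below Plxnb2 the order depends on the length used. Per kilobase of the longest transcript, iMac had Nrp1 at 73.2 ± 5.34, Nrp2 at 55.4 ± 9.25, Sema4a at 39.4 ± 6.46, Plxnd1 at 38.6 ± 3.004 and Plxnc1 at 35.0 ± 0.707, and MEF had Plxna1 at 45.9 ± 4.50, Nrp1 at 35.3 ± 16.1 and Sema3c at 30.9 ± 9.55. Plxnb2 was first in each group on that length too. Among the plexins alone and on exonic length, Plxnc1 held 13.6% and 13.9% of the per-kilobase level in iMac, 7.83% and 8.90% in MCC, and 0.334% and 0.282% in MEF, while Plxna1 held 5.36% and 4.90% in iMac, 9.01% and 5.64% in MCC, and 25.2% and 24.2% in MEF. At 10 CPM or more stood 16 members in iMac, 15 in MCC and 36 in MEF, and 12 members were below that level in all groups.

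**Figure D4:**
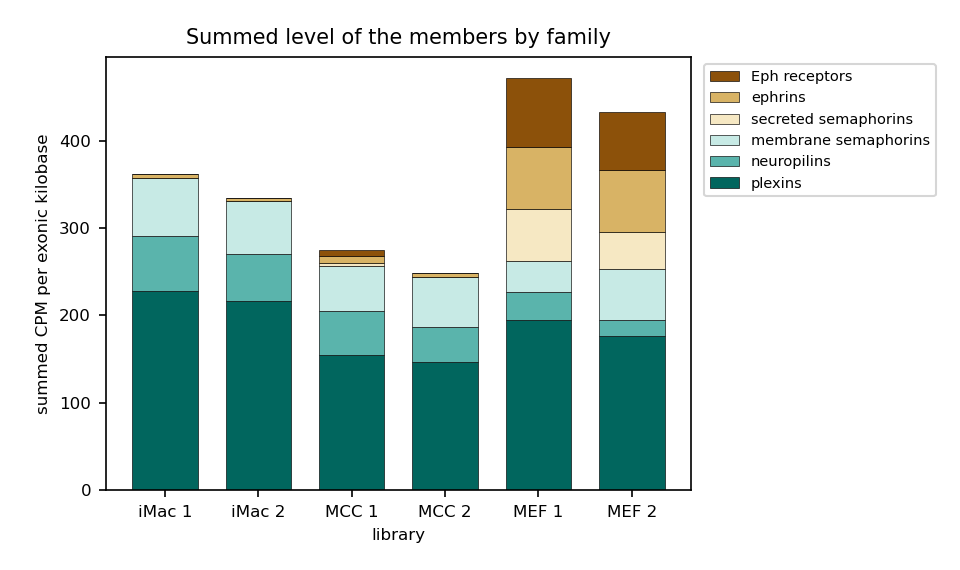
Summed level of the members in each library in CPM per exonic kilobase, stacked by family. The Eph receptor, ephrin and secreted semaphorin segments, wide in the MEF bars, are thin or invisible in the iMac bars, and plexins are the largest segment in all 6.

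The 2 MCC libraries differed in the members that MEF express. Of the 50 members tested, 27 were more than 2-fold higher in MCC library 1 than in MCC library 2, on levels with 0.1 CPM added, and none was more than 2-fold lower. Over all genes tested 11.7% were more than 2-fold higher in MCC library 1. The median log2 difference was 1.08 over the members and 0.00 over all genes tested. Of the 27 members, 26 were ones called lower in iMac than in MEF, and the other was Sema6d. For the 36 members called lower in iMac, the level left was a median of 0.308% and 0.370% of the MEF mean in iMac, 8.05% in MCC library 1 and 0.656% in MCC library 2. For the 10 fibroblast markers the corresponding medians were 0.0888% and 0.0490% in iMac, 4.03% in MCC library 1 and 0.365% in MCC library 2. MCC library 1 lay above MCC library 2 for 33 of the 36 members, all but Efnb3, Ephb1 and Plxna3, and for 10 of the 10 markers.

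The median log2 fold change of the members in MCC against MEF was -3.67 with both MCC libraries, -4.71 with library 1 left out and -2.96 with library 2 left out. With MCC library 1 left out 37 members were called lower and 6 higher in MCC. More fibroblasts in MCC library 1 and more of this RNA in each of its cells cannot be told apart.

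**Figure D5:**
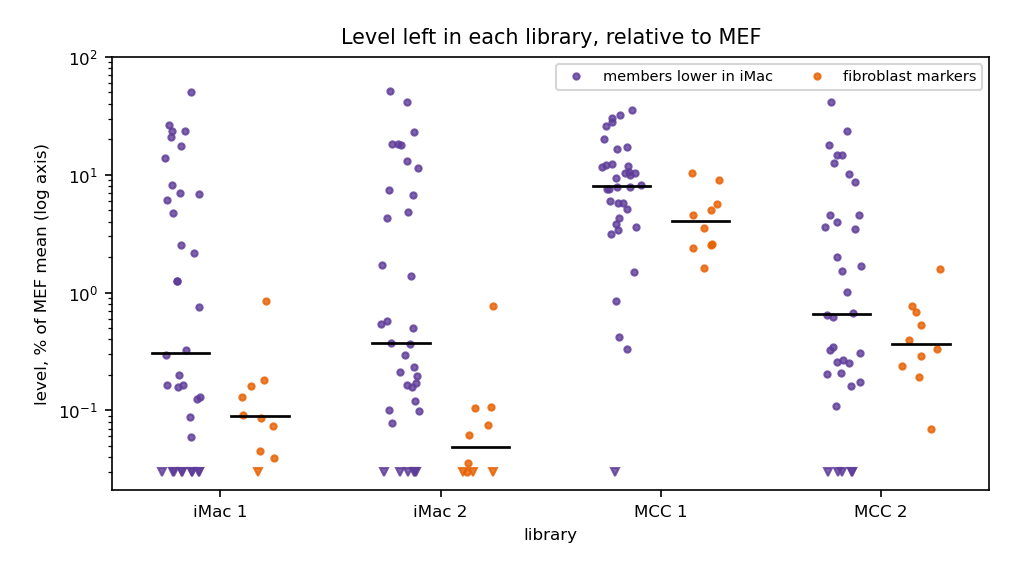
Level in each iMac and MCC library as a percentage of the MEF mean, on a log axis, for the 36 members called lower in iMac (purple) and the 10 fibroblast markers (orange). Lines are medians, and triangles at the foot mark genes below the lowest level drawn, with or without counts. In MCC library 1 both medians lie above those of the other 3 libraries.

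Between iMac and MCC the members at an unadjusted p under 0.05 fell into 2 kinds. Higher in iMac were the receptors Plxnc1, Plxnd1, Plxnb3 and Plxnb2 and the membrane semaphorins Sema5a and Sema6d. Lower in iMac were Epha2, Epha4, Ephb2, Ephb3, Efnb2, Sema3a, Sema3b, Sema3c, Sema3f and Sema7a, all of which stood higher in MCC library 1 than in MCC library 2. Ephb3 had the smallest p of these, 0.00148 unadjusted and 0.111 adjusted by edgeR's quasi-likelihood test, at a log2 fold change of -3.87 ± 0.63. Without MCC library 1 the log2 fold change in iMac against MCC was 1.21 for Plxnc1, 0.82 for Plxnd1, 0.97 for Plxnb3 and 0.43 for Plxnb2, against 1.28, 0.98, 1.06 and 0.40 with both libraries. Members lower in iMac depended more on single libraries in size, though all stayed negative. Over the fits that left out a library, the smallest fall ran from -0.20 for Sema3f to -3.23 for Ephb3. Those of Sema3a, Sema3b and Sema3c were -0.62, -0.62 and -0.76. With all libraries Sema3f stood at -4.50, Sema3a at -5.05, Sema3b at -2.93 and Sema3c at -3.58. None of these 16 members passed edgeR's quasi-likelihood test after adjustment over all genes. DESeq2 called 14 of the 16, all but Sema3b and Sema3c, limma-voom called Plxnc1, and edgeR called 12 without MCC library 2 and 0 without MCC library 1.

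Genes that work with these families were read from 3 lists of 81 genes in all, of which 77 were tested. The lists were chosen with earlier results of these data known, so their counts are no independent support. Over all genes tested, 25.1% were called higher and 32.4% lower in iMac against MEF. In MCC against MEF these shares were 23.4% and 29.6%. Of the partner genes tested, 13% rose in each comparison, and 75.3% fell in iMac and 71.4% in MCC. In iMac against MEF 10 rose and 58 fell, and in MCC against MEF 10 rose and 55 fell; without iMac library 1 or 2, 34 fell in iMac, and without MEF library 2, 36 fell in MCC. Among 11 receptor partners tested, 3 rose and 7 fell in iMac, and 3 rose and 6 fell in MCC. The share that rose was 27.3% in each, near that of all genes, while 63.6% fell in iMac and 54.5% in MCC. Those that rose were Tyrobp, the adaptor of myeloid receptors, Trem2, a lipid receptor that signals through it and has been placed beside Plxna1 in mouse osteoclasts and dendritic cells, and Cd72, an immune receptor of Sema4d. Tyrobp was at 709 and 741 CPM in iMac, 433 and 504 CPM in MCC, and 0.163 and 0.0773 CPM in MEF. Trem2 was at 377 and 393 CPM in iMac, 275 and 294 CPM in MCC, and 0.0271 and 0.0515 CPM in MEF. Cd72 was at 17.6 and 8.38 CPM in iMac, 12.3 and 10.1 CPM in MCC, and 0.0271 and 0.103 CPM in MEF. All 3 were almost absent from MEF, and the log2 fold change of Tyrobp was 12.53 ± 0.31 in iMac (adjusted p = 5.91e-05) and 11.90 ± 0.31 in MCC (adjusted p = 7.27e-05), that of Cd72 7.55 ± 0.69 and 7.34 ± 0.69 (adjusted p = 0.00131 and 0.00175), by edgeR's quasi-likelihood test. Trem2, with 3 counts in MEF, was 9709-fold higher (95% counting interval 3322 to 47084) in iMac and 7178-fold higher (95% counting interval 2456 to 34811) in MCC.

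Falling receptor partners included Itgb1, the beta-1 integrin chain, at means of 421 CPM in iMac, 469 CPM in MCC and 2196 CPM in MEF, with log2 fold changes of -2.38 ± 0.40 in iMac and -2.23 ± 0.40 in MCC (adjusted p = 0.00656 and 0.00933, edgeR's quasi-likelihood test). Ptk7, a kinase-dead co-receptor, had means of 1.74 CPM in iMac, 18.2 CPM in MCC and 355 CPM in MEF. Chl1, an adhesion molecule that binds neuropilins, had means of 0.0751 CPM in iMac, 0.509 CPM in MCC and 98.3 CPM in MEF, and both fell in both comparisons. Itga1, the integrin chain that pairs with Itgb1, had means of 0.0597 CPM in iMac, 5.41 CPM in MCC and 82.8 CPM in MEF, and Erbb2, a receptor kinase that associates with plexins B, had means of 0.0602 CPM in iMac, 2.84 CPM in MCC and 57.6 CPM in MEF. Erbb2 fell in both comparisons, and Itga1 fell in iMac and was not called in MCC (log2 fold change -3.93, adjusted p = 0.0672, edgeR's quasi-likelihood test).

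Of 43 genes that act downstream of Eph receptors, ephrins and plexins, 7 rose and 29 fell in iMac against MEF. In MCC against MEF 7 rose and 26 fell. Thus 16.3% rose in each comparison, against 25.1% of all genes in iMac and 23.4% in MCC. The share that fell was 67.4% in iMac and 60.5% in MCC, against 32.4% and 29.6% of all genes. Vav1, the exchange factor of blood cells that Eph receptors can recruit, was at 229.7 and 226 CPM in iMac, 209.6 and 222 CPM in MCC, and 0.0271 and 0.129 CPM in MEF. Fes, a tyrosine kinase implicated in plexin A signalling, was at 228 and 234 CPM in iMac, 187 and 235 CPM in MCC, and 19.1 and 19.9 CPM in MEF. Both were high in all iMac and MCC libraries, with log2 fold changes of 11.43 ± 0.40 and 3.57 ± 0.14 in iMac against MEF (adjusted p = 0.000117 and 0.000158) and 11.35 ± 0.40 and 3.44 ± 0.14 in MCC against MEF (adjusted p = 0.000133 and 0.000191, edgeR's quasi-likelihood test). Sdcbp, a PDZ adaptor of ephrin-B tails, and Inppl1, a phosphatase that binds Epha2, also rose, by 1.13 and 1.14 on the log2 scale in iMac and by 0.84 and 0.59 in MCC, and Rasa1, a Ras GTPase-activating protein, rose by 1.14 in iMac.

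Dpysl3, of the collapsin response mediator family, was at 0.597 and 0.332 CPM in iMac, 44.2 and 2.43 CPM in MCC, and 910.3 and 439 CPM in MEF. It fell steeply, with MCC library 1 far above MCC library 2, at a log2 fold change of -10.49 ± 1.84 in iMac (adjusted p = 0.00755) and -4.85 ± 1.39 in MCC (adjusted p = 0.0352, edgeR's quasi-likelihood test). Mical2, which oxidises actin, fell as well, with log2 fold changes of -2.58 ± 0.39 in iMac and -1.93 ± 0.38 in MCC. Farp1, an exchange factor of plexin A complexes, had -5.94 ± 0.85 in iMac and -3.91 ± 0.77 in MCC. The protease Adam10, which cleaves ephrins, fell slightly in iMac (-0.33 ± 0.08), and the kinase Abl1 fell slightly in MCC (-0.36 ± 0.10).

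Of 23 genes tested in the list of other guidance families, 22 fell and none was called higher in iMac against MEF. In MCC against MEF 23 fell. That is 95.7% and 100% called lower, against 32.4% and 29.6% of all genes tested. This list too was chosen with earlier results of these data known. Slit3, a ligand of Robo receptors, was at 0.0299 and 0.0905 CPM in iMac, 8.71 and 0.535 CPM in MCC, and 447 and 258 CPM in MEF. Slit2, its relative, was at 0.328 and 0.362 CPM in iMac, 7.75 and 0.936 CPM in MCC, and 326 and 151 CPM in MEF. Neo1, the receptor of repulsive guidance molecules, was at 24.6 and 29 CPM in iMac, 44 and 35.9 CPM in MCC, and 254 and 269 CPM in MEF. Flrt2, a ligand of Unc5 receptors, was at 26 and 19.4 CPM in iMac, 36.7 and 11.1 CPM in MCC, and 325 and 187 CPM in MEF. Slit2 and Slit3 were nearly absent from iMac, while Neo1 and Flrt2 averaged more than 20 CPM there. The log2 fold changes in iMac against MEF were -12.44 ± 1.88 for Slit3, -9.42 ± 1.34 for Slit2, -3.28 ± 0.15 for Neo1 and -3.50 ± 0.66 for Flrt2, with adjusted p of 0.005, 0.00425, 0.000234 and 0.00926 by edgeR's quasi-likelihood test. The single gene not called in iMac was Slit1, at 11.3 and 10.1 CPM in iMac, 3.77 and 2.54 CPM in MCC, and 6.61 and 21.4 CPM in MEF, where the iMac values lay between those of the 2 MEF libraries.

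Positions and promoter letters were looked up for the members, the letters having been chosen with earlier results of these data known. The members lie on 19 chromosomes of GRCm38 (the assembly of mm10), and 15 pairs lie within 2 Mb of each other. On chromosome 3, Efna1 and Efna4 lie 0.052 Mb apart, with Efna3 between them. Of these, Efna3 and Efna4 fell while Efna1 was not called. Sema4a, which rose, lies 0.811 Mb from Efna1. On chromosome X, Plxnb3, which rose, lies 0.557 Mb from Plxna3, which fell. Sema3a, with Sema3d at 0.536 Mb and Sema3e at 0.423 Mb on chromosome 5, and Sema3b with Sema3f at 0.072 Mb on chromosome 9, are neighbours that all fell in iMac.

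RefSeq promoter windows on GRCm38.p6, from 250 bases before to 50 after a transcript start, were found for 47 members. They were searched on both strands for GAGGAAG, the core that the macrophage factor PU.1 binds, for CACGTG, the E-box of Myc and Max, and for TGANTCA, the AP-1 site. GAGGAAG was present in 13 of the 47 members (27.7%), against 15.4% of all 27025 genes with a window. It was found in 6 of the 9 members that rose in iMac against MEF (Nrp1, Plxnb3, Plxnc1, Plxnd1, Sema4a and Sema6b), in 4 of 30 that fell (Efna5, Epha5, Sema3g and Sema4f) and in 3 of 8 others. CACGTG was present in 4 of the 47 (8.51%), against 8.09% of all genes, with none of the 9 that rose. TGANTCA was present in 3 of the 47 (6.38%), against 8.97% of all genes, with Sema4d and Sema6b among the 9 that rose. Sema4a has 4 windows, Sema4d 3 and 9 other members 2, which gives them more room for a match, and a match of letters is no evidence of binding.

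The windows of 3 members that rose and of Efna5, which fell, are shown to let the placement of GAGGAAG be seen; capitals mark it, or its reverse complement, and every window is written 5′ to 3′ on the strand of its gene. The Plxnc1 window (chr10:94944796-94945095, minus strand) holds 3 matches, the Sema4a window shown (chr3:88459052-88459351, minus strand) 1, the Plxnd1 window (chr6:115994956-115995255, minus strand) 2, and the Efna5 window (chr17:62881268-62881567, minus strand) 2 on the opposite strand that share a base. Of the 4 Sema4a windows only this 1 held a match, and those without a match are not shown.
Plxnc1: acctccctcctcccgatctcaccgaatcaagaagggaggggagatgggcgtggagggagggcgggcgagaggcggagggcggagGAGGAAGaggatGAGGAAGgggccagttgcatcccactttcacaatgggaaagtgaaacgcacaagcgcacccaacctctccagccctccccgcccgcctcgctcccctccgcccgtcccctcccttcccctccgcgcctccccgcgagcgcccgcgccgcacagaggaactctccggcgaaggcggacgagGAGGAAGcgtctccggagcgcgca
Sema4a: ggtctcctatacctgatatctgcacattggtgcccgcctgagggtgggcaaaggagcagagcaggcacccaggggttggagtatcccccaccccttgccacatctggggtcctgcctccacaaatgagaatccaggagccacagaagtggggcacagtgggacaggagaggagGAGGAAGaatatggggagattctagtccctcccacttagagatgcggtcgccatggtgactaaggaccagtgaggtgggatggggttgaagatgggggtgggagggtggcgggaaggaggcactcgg
Plxnd1: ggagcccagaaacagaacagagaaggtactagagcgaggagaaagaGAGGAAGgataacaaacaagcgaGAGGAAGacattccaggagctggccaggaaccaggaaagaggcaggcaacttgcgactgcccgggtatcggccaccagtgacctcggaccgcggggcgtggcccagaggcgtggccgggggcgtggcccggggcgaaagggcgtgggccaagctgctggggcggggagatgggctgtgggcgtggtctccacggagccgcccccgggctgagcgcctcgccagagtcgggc
Efna5: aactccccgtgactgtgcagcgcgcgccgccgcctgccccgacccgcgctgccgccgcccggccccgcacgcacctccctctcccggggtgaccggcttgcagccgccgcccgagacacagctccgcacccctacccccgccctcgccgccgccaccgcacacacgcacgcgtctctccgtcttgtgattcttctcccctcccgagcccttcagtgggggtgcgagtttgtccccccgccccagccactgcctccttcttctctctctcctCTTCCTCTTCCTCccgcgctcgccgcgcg
In Plxnc1 a close pair of matches begins 166 bases before the start and the third lies after it. In Plxnd1 the first begins 204 bases before the start. In Sema4a the match begins 77 bases before the start of the window shown, whereas both matches of Efna5 lie after the start.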

How the data were processed

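RNA had been measured by sequencing in 6 libraries. The deposited table holds whole-number read counts per gene, which the authors made with STAR against mm10 and featureCounts, per the submitters' processing notes; versions, annotation, strand setting and the treatment of multimapping reads were not given in the sources used here. Total RNA was taken with Trizol and an mRNA kit was used, per the labels' protocols.

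The counts were used as deposited. Of 30445 genes, 18613 passed edgeR's filterByExpr. Genes were fitted in edgeR 4.0.16 (R 4.3.3) with TMM scaling and group as the only term over all 6 libraries, which leaves 3 residual degrees of freedom, and tested two-sidedly with the quasi-likelihood test and Benjamini-Hochberg adjustment over all genes tested at a threshold of 0.05. The SE of a fold change was derived from its F statistic (prior count 0.125). Where a group had no counts, the fold is a lower bound against 3 counts over the group. With 1 to 3 counts it is a ratio with its 95% counting interval. Depths of 34389817 to 39174367 counts set these limits. Exonic lengths and coordinates came from GENCODE M21 (GRCm38) and promoters from RefSeq GRCm38.p6, by symbol: all 53 members matched the first and 47 the second.

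Members, partner lists, markers and letters were chosen with earlier results of these data known. Values per library are given for members with a group mean of at least 10 CPM, and lower members are named where a called log2 fold change was at least 5 in size. Other low members are named after their values were seen. Of each partner list, up to 4 called genes with the highest level in each direction are named, and Slit1 was named after its values were seen. Alternatives were other scalings, DESeq2 1.42.0, limma-voom (limma 3.58.1), other filters, fits of the compared groups, a replicate block and leaving out each library, which assumes that the lone library of a group varies like the others. Unscaled library totals were tried as well, a choice made after seeing the data. Recovery of known changes was tested on simulated data.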

Additional observations from a re-analysis of the deposited data

How the results depend on the processing

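Counts of members called higher and lower against MEF stayed within 1.5 times the reported ones under each alternative except the leaving out of an iMac library. Leaving out 1 library at a time gave 6 to 7 members higher and 24 to 37 lower in MCC against MEF, 6 to 9 higher and 18 to 36 lower in iMac against MEF, and 0 to 2 higher and 0 to 14 lower in iMac against MCC. For partner genes it gave 36 to 53 lower in MCC against MEF, 34 to 58 lower in iMac against MEF and 0 to 19 lower in iMac against MCC. In iMac against MCC, where no member or partner was called, DESeq2 called 6 members higher and 10 lower and 8 partners higher and 23 lower; the fit of these groups alone called 6 and 1 members and 6 and 5 partners; limma-voom called 1 member higher and 2 partners lower, and so did the fit with no filter. The cause was not tested.

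The labels do not say whether the replicate numbers pair the libraries. The correlation over genes of the differences between numbered libraries was 0.189 for MEF and MCC, 0.0105 for MEF and iMac and 0.0286 for MCC and iMac. These values cannot settle it, since libraries made side by side need not share differences in expression. With the replicate block 7 members were higher and 36 lower in MCC, 9 higher and 36 lower in iMac, and 0 either way in iMac against MCC. The 3 gained in MCC were Epha2, Epha3 and Sema3f, at log2 fold changes of -4.53, -6.28 and -5.04.

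Of 2070 alternative fold changes of single members 1848 kept direction and side of the threshold, 111 lost the call, 70 gained one and 41 changed sign, with 0 of these called under either setting. Signs changed for Plxnb2 in MCC with median-ratio size factors and DESeq2 (-0.0714 and -0.0713), for Efna1 in MCC in the fit of compared groups (0.0163) and in iMac with no filter (0.0032), and in iMac against MCC with unscaled totals for Efna1 (-0.0596), Plxna1 (-0.103) and Sema4a (-0.0436) and by limma-voom for Plxnb1 (0.0923) and Sema3e (0.0258). Unscaled totals move the median log2 fold change of all genes in iMac against MCC to -0.16, from -0.02 as reported. Leaving out libraries gave ranges that cross 0 in MCC for Efna1 (-0.27 to 0.16), Plxnb2 (-0.0395 to 0.17) and Sema4g (-0.40 to 0.0349), in iMac for Efna1 (-0.0436 to 0.0159) and Sema4g (-0.0437 to 0.36), and in iMac against MCC for Efna1 (-0.19 to 0.24), Efna2 (-0.0265 to 0.76), Efna4 (-1.38 to 0.50), Efnb1 (-1.46 to 0.0612), Epha1 (-3.60 to 0.35), Ephb4 (-5.27 to 0.14), Ephb6 (-2.12 to 2.17), Nrp2 (-0.18 to 0.35), Plxna1 (-0.43 to 0.44), Plxna2 (-0.17 to 0.38), Plxna4 (-1.86 to 0.26), Plxnb1 (-0.74 to 0.78), Sema3d (-8.09 to 2.40), Sema3e (-0.77 to 0.69), Sema4a (-0.0923 to 0.26), Sema4c (-0.25 to 0.0223), Sema4f (-6.67 to 1.82), Sema5b (-3.67 to 3.26) and Sema6c (-0.0806 to 0.74). Levels per kilobase on the longest transcript in place of all exons moved beyond the spread for 25 of 41 members. Members with at most 3 counts in a group are limited by depth.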
